A study of Mus musculus with 10 samples.

Results

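Genes of the tissue inhibitors of metalloproteinases (TIMPs) and of the proteases they restrain were examined in the gastrocnemius of mice lacking the aryl hydrocarbon receptor (AHR) in muscle fibres and of mice that kept it. The set holds 10 of the 49315 genes counted: the inhibitors *Timp1*, *Timp2*, *Timp3* and *Timp4*, the matrix metalloproteinases *Mmp2*, *Mmp9*, *Mmp14* and *Mmp15*, and the secreted proteases *Adamts1* and *Adamts5*. They were chosen by symbol, with the difference between the genotypes already known, and *Timp3* was picked out because its levels did not overlap between the groups. The difference between genotypes is therefore a description of these 10 genes, with an interval for its error, and no p is given for the difference of any single one of them.

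RNA was sequenced from 10 male mice on the C57BL6J background, 5 labelled AHRfl (genotype AHR-floxed) and 5 labelled AHRmko (genotype AHR-muscle knockout). AHRmko mice carry floxed *Ahr* and the HSA-MCM transgene, in which the human ACTA1 promoter drives a MerCreMer recombinase that tamoxifen activates, so the deletion is aimed at skeletal myofibres while fibroblasts, endothelium and other cells of the muscle keep *Ahr*. The study's text describes the controls as littermates that lack Cre, and the labels mention tamoxifen for AHRmko mice. All 10 mice had breathed cigarette smoke for 16 weeks, on 5 days per week in 2 daily sessions of 1 h. By the labels, smoke began 4 weeks after tamoxifen and muscle was taken 72 h after the last exposure. Elsewhere the study's text gives a shorter interval after tamoxifen and a window for the harvest that begins earlier. No air-exposed mice are given for these libraries, so every value below comes from smoke-exposed muscle. No age in weeks or months is given either, though the study's text calls the mice of the smoke experiment aged.

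TIMPs are small secreted proteins that occupy the catalytic zinc of metalloproteinases. MMPs are made as inactive zymogens and cut collagens, laminins and other matrix proteins once activated. MMP14, which sits in the cell membrane, activates pro-MMP2 in a complex that also contains TIMP2, whereas TIMP3 stays bound to the matrix and also restrains ADAM17 and the ADAMTS proteases. AHR is a ligand-activated transcription factor, responsive to constituents of tobacco smoke, that binds DNA with its partner ARNT at a short core, GCGTG.

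The promoters of *Timp3*, *Adamts1* and *Mmp14* are printed because these were the 3 genes of the set whose levels did not overlap between the genotypes. Each sequence is RefSeq, GRCm38.p6, 5′ to 3′ on the gene's own strand, from 250 bases before the annotated start to 50 after it, with the GCGTG core in capitals where it occurs. They lie at chr10:86300162-86300461 on the plus strand (*Timp3*), chr16:85803064-85803363 on the minus strand (*Adamts1*) and chr14:54431348-54431647 on the plus strand (*Mmp14*).
Timp3: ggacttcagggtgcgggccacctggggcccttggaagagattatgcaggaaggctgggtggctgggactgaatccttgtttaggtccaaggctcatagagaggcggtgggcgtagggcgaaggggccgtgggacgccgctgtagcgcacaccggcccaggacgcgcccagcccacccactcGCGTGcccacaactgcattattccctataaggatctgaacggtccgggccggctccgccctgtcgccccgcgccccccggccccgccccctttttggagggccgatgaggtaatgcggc
Adamts1: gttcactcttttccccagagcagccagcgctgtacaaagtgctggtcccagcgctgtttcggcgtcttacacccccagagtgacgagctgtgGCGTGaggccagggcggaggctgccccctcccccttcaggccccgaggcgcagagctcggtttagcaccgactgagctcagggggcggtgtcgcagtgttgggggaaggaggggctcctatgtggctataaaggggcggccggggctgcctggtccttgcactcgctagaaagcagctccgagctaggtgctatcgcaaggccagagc
Mmp14: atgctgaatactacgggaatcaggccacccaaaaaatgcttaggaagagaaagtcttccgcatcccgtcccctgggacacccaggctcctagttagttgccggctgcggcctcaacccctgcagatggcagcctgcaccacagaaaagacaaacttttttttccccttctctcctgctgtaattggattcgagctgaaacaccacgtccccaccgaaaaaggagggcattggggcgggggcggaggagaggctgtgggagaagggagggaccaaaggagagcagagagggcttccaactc

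GCGTG, searched on both strands, stood 69 bases before the start in *Timp3* and 158 bases before it in *Adamts1*, and was not found in the window of *Mmp14*. Promoters of 7 of the 10 genes were in the table (not those of *Mmp2*, *Mmp9* and *Adamts5*). The core was in 4 of these 7, with *Timp2* (113 bases before the start) and *Timp1* (206 bases before it) as the others, and in 32.4% of 32851 mouse promoters of the same length. Distances are from the RefSeq start of each window. For *Timp2*, *Timp3*, *Mmp14* and *Mmp15* that start differs from the start of the gene in the coordinates given below. The GC box GGGCGG was in 6 of 7, against 35.7% of all promoters. The AP-1 letters TGANTCA were in 0 of 7, against 7.81%, and the TATA box letters TATAAA in 1 of 7, *Adamts1*, against 13.6%. No match of one motif overlapped a match of another. A match is a description of the letters and was not tested for binding.

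Total counts were between 30393035 and 37954388 per mouse, so 3 counts, the smallest number read here as signal, correspond to between 0.0788 and 0.0927 CPM (counts-per-million of the TMM-scaled library size). Between 21296 and 25494 genes had a count in a mouse, with AHRfl mouse 33 at the top of that range, and no pair of libraries held the same counts. The tissue label was checked against 8 myofibre markers, *Acta1* and *Ckm* among them, which summed to 130090 to 180160 CPM in AHRfl and 145110 to 176220 CPM in AHRmko muscle. *Ahr* itself had 43 to 110 counts in AHRfl and 31 to 80 in AHRmko mice. Its log2 fold change, AHRmko minus AHRfl, was -0.35 with a standard error of 0.26 (edgeR quasi-likelihood test, adjusted p = 0.844). The counts add all exons of *Ahr*, and the other cell types of the muscle keep the gene, so they check the deletion only in part. Marker lists of slow fibres, fibroblasts, endothelium, pericytes and smooth muscle, tendon, macrophages, neutrophils, adipocytes, Schwann cells and satellite cells all had summed levels that overlapped between the genotypes, and by edgeR 0 of their tested genes passed an adjusted p of 0.05 and 1, a tendon marker, had an unadjusted p under 0.05. All tested markers were higher on average in AHRmko for slow fibres (7, median log2 fold change 0.43), endothelium (6, 0.14) and adipocytes (4, 0.39). All were lower for Schwann cells (5, -0.32) and neutrophils (2, -0.67), and the remaining lists went both ways. The part of endothelium, adipocytes, Schwann cells and neutrophils in the values below was not tested.

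Over all 14714 genes tested, the genotypes differed at an adjusted p under 0.05 in 1 gene (0.0068%) by edgeR's quasi-likelihood test. That gene was *Esr1*, the estrogen receptor gene from which the MerCreMer fusion takes its tamoxifen-binding parts. None of the 10 TIMP and protease genes passed, by edgeR or by limma-voom. At an unadjusted p under 0.05, 3 of the 10 passed, 2 higher and 1 lower in AHRmko, beside 6.61% of all genes. Levels did not overlap between the 5 AHRfl and the 5 AHRmko mice for the same 3 genes, beside 1.4% of all genes. DESeq2's Wald test, run as an alternative, called *Timp3* and *Adamts1* of the 8 that received an adjusted p, and 0.193% of 10858 genes. Because this contrast was known when the genes were chosen, and chose *Timp3*, nothing is read from any of these counts against the shares of all genes. The 10 genes had no common direction: 5 were higher and 5 lower in AHRmko, and their median log2 fold change was -0.01, against 0.01 for all genes tested.

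**Figure D1:**
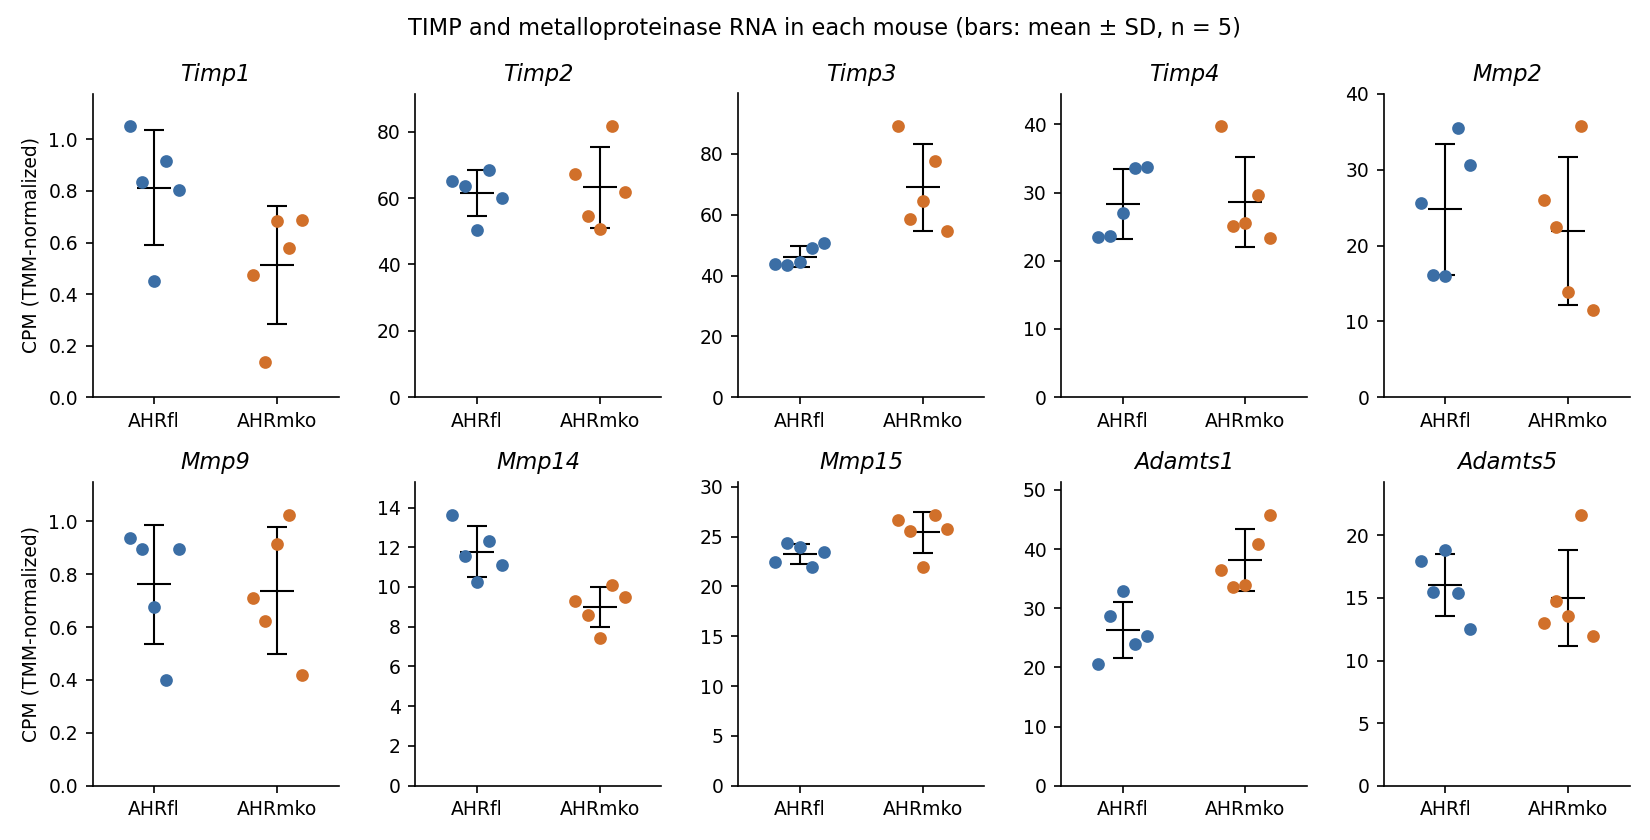
Level of each of the 10 genes in TMM-normalized CPM (y axis, from 0) by genotype (x axis), with 1 point per mouse and the mean ± SD of 5 mice in black. The 5 AHRmko mice lie above the 5 AHRfl mice for *Timp3* and *Adamts1* and below them for *Mmp14*, and the points of the other 7 genes overlap.

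*Timp3* encodes the TIMP that is held in the extracellular matrix. It was at 43.7, 43.5, 44.3, 48.9 and 50.7 CPM in AHRfl mice 11, 12, 13, 15 and 33, and at 89.2, 58.6, 64.7, 77.8 and 54.6 CPM in AHRmko mice 8, 9, 19, 22 and 34. The AHRfl mice lay close together, the AHRmko mice were spread widely, and the lowest AHRmko mouse was 1.08 times the highest AHRfl mouse. The means were 46.2 ± 3.35 CPM and 69.0 ± 14.3 CPM (SD, n = 5 each), a ratio of 1.49 with a 95% interval of 1.24 to 1.79. With libraries scaled by total counts alone the ranges met, the highest AHRfl mouse being at 54.0 CPM and the lowest AHRmko mouse at 52.1 CPM. On the log2 scale the difference was 0.58 (standard error 0.12), or 0.47 without AHRmko mouse 8, the highest, or 0.61 without AHRfl mouse 33. Whole muscle was sequenced, so here and below fewer cells of a type and less RNA per cell cannot be told apart.

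*Timp3* (GRCm38, chromosome 10, 86300372 to 86349506, plus strand) lies within the span of *Syn3*, a synapsin gene on the opposite strand, and the annotated exons of the genes share 1733 bases. *Syn3* had 16 to 32 counts in a mouse, whereas *Timp3* had 1508 to 3395. Whether the counting used strand is not given, so reads on the shared bases cannot be assigned to one gene with certainty.

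*Timp2*, whose protein both inhibits MMPs and takes part in the activation of pro-MMP2, had the highest CPM of the TIMPs in AHRfl muscle. Its levels were 65.3, 63.5, 50.5, 68.6 and 60.2 CPM in AHRfl mice 11, 12, 13, 15 and 33 and 67.4, 54.7, 50.7, 81.7 and 61.8 CPM in AHRmko mice 8, 9, 19, 22 and 34. The groups overlapped almost entirely, with the lowest mouse of each at nearly the same value. Between genotypes the log2 fold change was 0.04, with a 95% interval of -0.23 to 0.31. The sign turned without AHRfl mouse 13 (-0.02), without AHRmko mouse 22 (-0.07), with 1 surrogate variable and with a slow-fibre covariate. *Timp2* is on chromosome 11, 118301069 to 118355740, minus strand.

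*Timp4*, a TIMP best known from heart and skeletal muscle, averaged 28.3 ± 5.12 CPM in AHRfl and 28.7 ± 6.62 CPM in AHRmko muscle (SD, n = 5 each). The AHRfl mice fell at 23.4, 23.6, 27.1, 33.6 and 33.8 CPM for mice 11, 12, 13, 15 and 33, and the AHRmko mice at 39.8, 25.2, 25.5, 29.6 and 23.3 CPM for mice 8, 9, 19, 22 and 34. AHRmko mouse 8, the highest for *Timp3*, was the highest for *Timp4* too. The genotypes differed by a log2 fold change of 0.02 (95% interval -0.33 to 0.37), which was -0.13 without AHRmko mouse 8. *Timp4* (chromosome 6, 115241892 to 115252205, minus strand) lies within *Syn2*, with 90 bases of exon in common and 20 to 63 *Syn2* counts per mouse.

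*Timp1*, the inducible TIMP that rises in many injured tissues, was near the bottom of the range, with only 16 to 37 counts per AHRfl mouse and 5 to 24 per AHRmko mouse. This was 0.812 ± 0.223 CPM in AHRfl and 0.512 ± 0.228 CPM in AHRmko muscle (SD, n = 5 each). Its log2 fold change of -0.67 had a wide 95% interval, -1.45 to 0.11, and it was -0.42 without AHRmko mouse 9, the mouse with 5 counts. *Timp1* lies at 20870166 to 20874735 on the plus strand of chromosome X, within *Syn1*, with which it shares no exon bases.

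*Mmp14*, the membrane-bound activator of pro-MMP2, was lower in every AHRmko mouse than in any AHRfl mouse. It was at 13.6, 11.5, 10.2, 12.3 and 11.1 CPM in AHRfl mice 11, 12, 13, 15 and 33 and at 9.30, 8.57, 7.45, 10.1 and 9.48 CPM in AHRmko mice 8, 9, 19, 22 and 34. The groups were adjacent rather than apart, since the highest AHRmko mouse was at 0.989 times the lowest AHRfl mouse. The means were 11.8 ± 1.29 CPM and 8.98 ± 1.02 CPM (SD, n = 5 each), a ratio of 0.763 (95% interval 0.654 to 0.890). With total-count scaling the ranges crossed, at 9.95 CPM for the lowest AHRfl and 10.1 CPM for the highest AHRmko mouse. On the log2 scale it was -0.39 (standard error 0.103), or -0.33 without AHRmko mouse 19, the lowest, or -0.41 without AHRfl mouse 33. The gene is on chromosome 14, 54431612 to 54445364, plus strand.

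*Mmp15*, also a membrane-bound MMP, had groups that overlapped. Its levels of 22.5, 24.4, 24.0, 21.9 and 23.5 CPM in AHRfl mice 11, 12, 13, 15 and 33 and 26.6, 25.6, 21.9, 27.2 and 25.7 CPM in AHRmko mice 8, 9, 19, 22 and 34 were the most even of the set. In 4 of 5 AHRmko mice they were above every AHRfl mouse, and AHRmko mouse 19 fell among the lowest. Its log2 fold change was 0.13 (95% interval -0.02 to 0.28). *Mmp15* is on the plus strand of chromosome 8, 95352268 to 95375080.

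The gelatinases, which degrade denatured collagen and basement membrane collagen, were far apart in level. *Mmp2* was at 25.6, 16.2, 16.0, 35.5 and 30.6 CPM in AHRfl mice 11, 12, 13, 15 and 33 and at 26.1, 22.4, 13.8, 35.8 and 11.5 CPM in AHRmko mice 8, 9, 19, 22 and 34. The highest and the lowest AHRmko mouse differed 3.10-fold, and the log2 fold change of -0.18 had a 95% interval of -0.98 to 0.63. It moved from -0.43 without AHRmko mouse 22 to -0.0093 without AHRfl mouse 15, and was -0.42 with 1 surrogate variable. *Mmp9*, a gelatinase abundant in neutrophils, had 14 to 39 counts per mouse. It was at 0.761 ± 0.226 CPM in AHRfl and 0.738 ± 0.239 CPM in AHRmko muscle (SD, n = 5 each), with a 95% interval for the log2 fold change of -0.68 to 0.60. The neutrophil markers summed to 2.53 to 4.48 CPM in AHRfl and 0.63 to 3.74 CPM in AHRmko muscle, and their part in the *Mmp9* values was not tested. *Mmp2* is at 92827291 to 92853420 on the plus strand of chromosome 8, and *Mmp9* at 164940780 to 164955850 on the plus strand of chromosome 2.

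*Adamts1* and *Adamts5* encode secreted proteases that cut versican and aggrecan, and they are neighbours on the minus strand of chromosome 16 (85793827 to 85803113 and 85856173 to 85901828), 53059 bases apart with 0 coding genes between them. *Adamts1* was at 20.6, 28.6, 32.97, 23.9 and 25.4 CPM in AHRfl mice 11, 12, 13, 15 and 33 and at 36.5, 33.6, 33.9, 40.8 and 45.8 CPM in AHRmko mice 8, 9, 19, 22 and 34. Every AHRmko mouse was above every AHRfl mouse, though the lowest of the one was only 1.02 times the highest of the other, AHRfl mouse 13. The means of 26.3 ± 4.72 CPM and 38.1 ± 5.20 CPM (SD, n = 5 each) gave a ratio of 1.45 (95% interval 1.20 to 1.75). This separation held with total-count scaling, at 32.0 CPM for the highest AHRfl and 32.8 CPM for the lowest AHRmko mouse. Its log2 fold change of 0.54 (standard error 0.124) was 0.46 without AHRfl mouse 11 and 0.52 without AHRfl mouse 33.

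*Adamts5* was at 18.0, 15.5, 18.9, 15.4 and 12.6 CPM in AHRfl mice 11, 12, 13, 15 and 33 and at 13.001, 14.7, 13.6, 21.7 and 11.99 CPM in AHRmko mice 8, 9, 19, 22 and 34. The groups overlapped, and AHRmko mouse 22 was the highest of all 10 mice. Between genotypes it differed by a log2 fold change of -0.10, which ran from -0.27 without AHRmko mouse 22 to -0.03 without AHRmko mouse 34 (95% interval of the full fit -0.45 to 0.25). No test of the difference between the neighbours' changes was run.

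**Figure D2:**
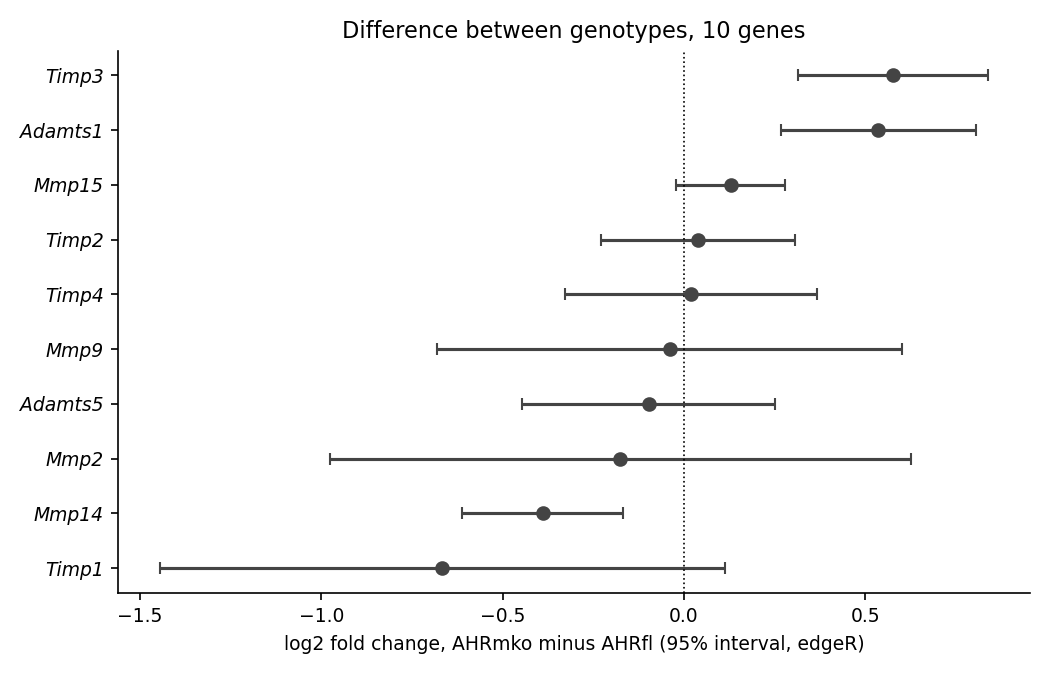
Log2 fold change of each gene, AHRmko minus AHRfl (x axis), with the 95% interval of the edgeR fit, ordered by value. *Timp3* (0.58) and *Adamts1* (0.54) stand to the right of 0 and *Mmp14* (-0.39) to the left, and the intervals of *Timp1*, *Mmp2* and *Mmp9* are the widest. The intervals describe the error of each value and are not read as a test against 0.

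Levels between genes were compared per kilobase of exon. By all exons *Timp2* was the highest of the set, at 16.0 ± 2.40 CPM per kilobase (SD, n = 10), and it was above *Timp3*, the next, in 10 of 10 mice. *Timp3* (7.07 ± 1.90), *Mmp2* (6.93 ± 2.62), *Adamts1* (6.08 ± 1.47), *Timp4* (4.83 ± 0.947) and *Mmp15* (4.51 ± 0.354) followed in a group whose neighbours were not separated, since each was above the next in only 5 to 7 of the 10 mice. *Mmp15* was above *Mmp14* (1.74 ± 0.308) in 10 of 10 mice, *Mmp14* above *Adamts5* (1.44 ± 0.288) in 7, *Adamts5* above *Timp1* (0.745 ± 0.298) in 10, and *Timp1* above *Mmp9* (0.212 ± 0.0621) in 9. This order is over all 10 mice, and the middle of it differed by genotype. In AHRfl muscle *Mmp2* (7.35) was above *Timp3* (5.68) and *Adamts1* (4.96), and in AHRmko muscle *Timp3* (8.47) and *Adamts1* (7.19) were above *Mmp2* (6.50). Divided by the longest transcript instead of all exons, the order of the means over all 10 mice was the same, but *Timp3* came to 12.2 and *Mmp14* to 3.21 CPM per kilobase. By that length *Timp2* was above *Timp3* in 8 of 10 mice, *Timp3* was above *Mmp2* in 9, and in AHRfl muscle *Timp3* (9.79) was above *Mmp2* (8.05), so the order in the middle rests on the length used.

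**Figure D3:**
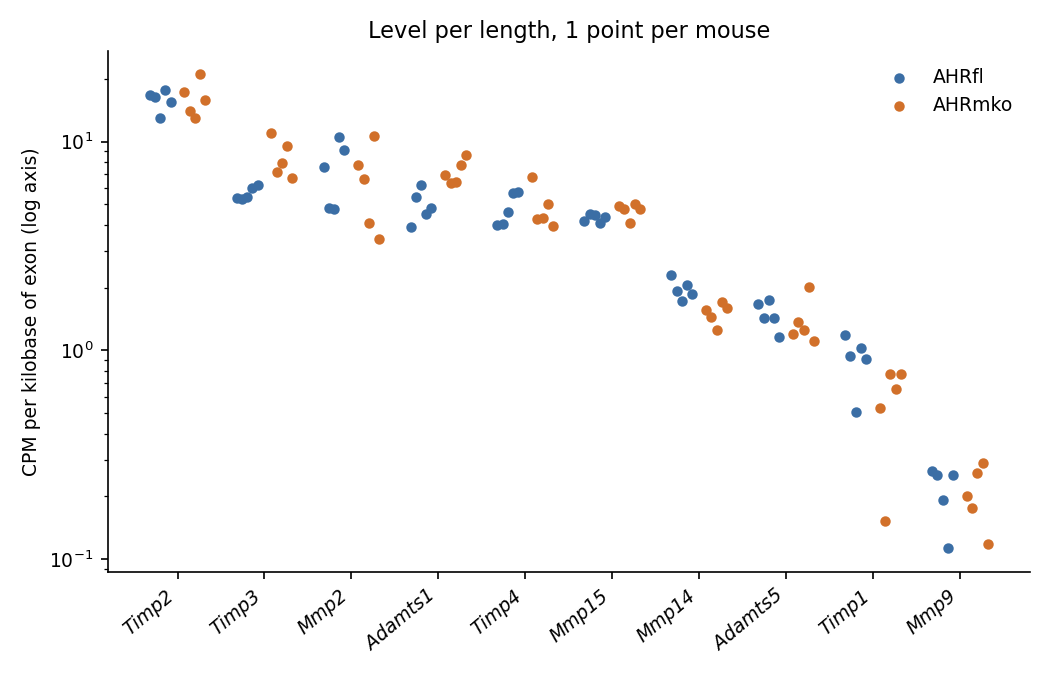
Level per kilobase of exon in CPM (y axis, log scale), 1 point per mouse, genes ordered by their mean over the 10 mice. *Timp2* is at the top with 16.0 and *Mmp9* at the bottom with 0.212 on average, and 5 genes from *Timp3* to *Mmp15* occupy a common range.

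The summed RNA of the 4 inhibitors was 27.2 ± 2.51 CPM per kilobase in AHRfl and 30.2 ± 5.26 in AHRmko muscle, and that of the 6 proteases was 20.3 ± 1.79 and 21.5 ± 3.77 (SD, n = 5 each). Inhibitor RNA divided by protease RNA was 1.34 ± 0.0798 in AHRfl and 1.41 ± 0.136 in AHRmko muscle, a difference smaller than the SD of the AHRmko mice. The make-up of the inhibitor sum was described as the share of each gene. *Timp3* took 19.7% to 23.2% in AHRfl mice and 24.6% to 30.8% in AHRmko mice. *Timp2* took 58.1% ± 3.27 and 53.9% ± 4.397, *Timp4* 17.6% ± 2.64 and 16.1% ± 2.03, and *Timp1* 3.33% ± 0.783 and 1.94% ± 0.983, with ranges that overlapped. These sums and shares rest on the same differences as the values above and add no separate evidence. They also depend on the length used, since *Timp3* and *Mmp14* came out higher per kilobase of the longest transcript.

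**Figure D4:**
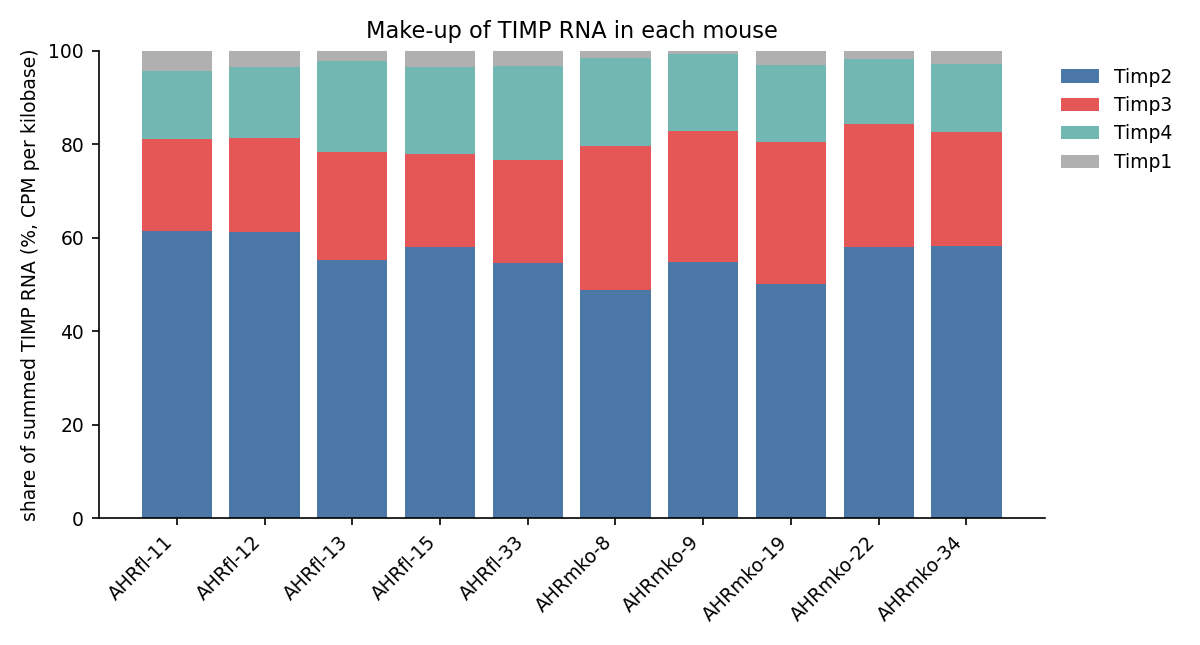
Share of each TIMP gene in the summed TIMP RNA (y axis, percent of CPM per kilobase) in each of the 10 mice (x axis). *Timp2* is the largest share in every mouse, and the *Timp3* share is between 19.7% and 23.2% in AHRfl and between 24.6% and 30.8% in AHRmko mice.

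The spread between mice of one genotype differed widely among the 10 genes. On the log2 scale the SD within genotypes was 0.0973 for *Mmp15*, at percentile 11.9 of all genes tested, and 0.162 for *Mmp14*. It was 0.219 for *Timp3*, 0.225 for *Timp2* and 0.227 for *Adamts1*, close to the median of 0.209 over all genes. *Mmp2*, at 0.600, stood at percentile 92.6, with 386 to 1360 counts per mouse. *Timp1* (0.653, percentile 94.5) and *Mmp9* (0.469, percentile 84.6) varied as much or nearly so with 5 to 39 counts.

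Mouse-to-mouse variation was compared with scores of tissue make-up, the mean log2 CPM of 8 fibroblast and of 7 slow-fibre markers, in 20 relations (10 genes with each score, two-sided permutation tests over 10 mice). *Mmp2* rose with the fibroblast score, with Pearson's r = 0.90 (permutation p = 0.001, adjusted p = 0.02) and Spearman's rho = 0.89 (permutation p = 0.00109, adjusted p = 0.0218). Leaving out the 2 mice with the most distant scores gave r = 0.86, and over deviations from the genotype means it was 0.91. *Timp4* rose with the slow-fibre score, with r = 0.82 (permutation p = 0.00402, adjusted p = 0.0402), while rho = 0.73 did not pass after adjustment (permutation p = 0.0204, adjusted p = 0.204). For *Timp4* r was 0.80 when the corresponding 2 mice were left out and 0.85 over the deviations. The other 18 relations did not pass an adjusted p of 0.05. The scores ranged from 4.39 to 5.22 in AHRfl and 4.48 to 5.32 in AHRmko mice for fibroblasts, and from 2.07 to 7.75 and 3.71 to 7.94 for slow fibres, so they overlapped between genotypes.

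For *Timp3*, whose groups did not overlap under TMM scaling, the relation with the slow-fibre score pooled over all 10 mice did not pass, with r = 0.63 (permutation p = 0.0517, adjusted p = 0.199) and rho = 0.61 (permutation p = 0.0666, adjusted p = 0.266). Pearson's r was 0.40 when the 2 mice with the most distant scores were left out. These pooled values include the difference between genotypes for which *Timp3* was picked, so nothing is read from their p. Over deviations from the genotype means, its r with the slow-fibre score was 0.77, which is a description. When the fit included each mouse's slow-fibre score, the log2 fold change of *Timp3* between genotypes was 0.48, and that of *Timp4* and *Timp2* was -0.10 and -0.02. All 7 slow-fibre markers were higher on average in AHRmko muscle, with a median log2 fold change of 0.43, and their summed CPM ran from 65.8 to 1754 in AHRfl and from 225.5 to 2112 in AHRmko mice. The part of slow fibres in the *Timp3* difference was not tested beyond this covariate.

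**Figure D5:**
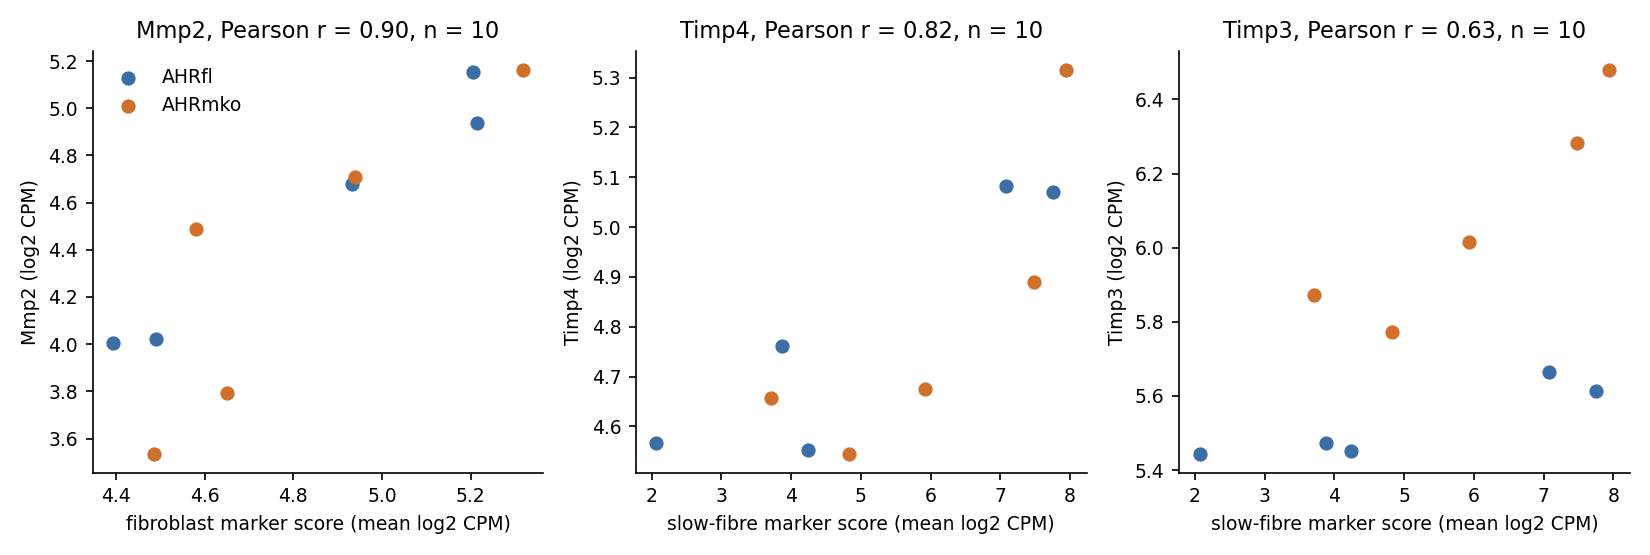
Log2 CPM of *Mmp2* against the fibroblast score and of *Timp4* and *Timp3* against the slow-fibre score (x axes, mean log2 CPM of the markers), 1 point per mouse, coloured by genotype. *Mmp2* and *Timp4* follow their score in both genotypes (r = 0.90 and 0.82), and for *Timp3* the AHRmko mice lie above the AHRfl mice, with no AHRmko mouse at a slow-fibre score under 3.71.

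Among the 10 genes themselves, 45 pairs were compared over the 10 mice with the genotypes pooled, and 0 passed an adjusted p of 0.05. Pooling adds any difference between genotypes to the values, so 0 passing is not read as a lack of covariation. By Pearson's r the lowest permutation p was that of *Mmp15* and *Adamts1* (r = 0.73, permutation p = 0.0186, adjusted p = 0.417). By Spearman's rho it was that of *Timp3* and *Mmp14* (rho = -0.78, permutation p = 0.0102, adjusted p = 0.178), which have groups that do not overlap, one higher and the other lower in AHRmko. For *Timp3* and *Mmp14* r over deviations from the genotype means was 0.19, of the opposite sign, and for *Mmp15* and *Adamts1* it was 0.54. Both pooled values include the difference between genotypes that was known in advance, so nothing is read from their p. Over deviations from the genotype means, given as a description, *Timp3* and *Timp4* had r = 0.89, *Timp2* and *Mmp14* r = 0.86, and *Timp3* and *Mmp2* r = 0.70. These 3 were picked as high among the 45 pairs and were not tested. Of all genes tested, those whose deviations were most like those of *Timp3* over the 10 mice were *Cds1* (r = 0.97), *Trappc6a* (0.96), *Zfp955a* (0.96), *Nedd1* (0.94) and *Tent4a* (0.94). These 5 were picked as the highest of many genes compared over only 10 mice, and their r were not tested. *Timp4* stood at rank 22. The log2 fold changes of these 5 genes, AHRmko minus AHRfl, were between -0.46 and 0.06, and the 95% interval of each included 0.

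The rest of the pathway was described with 8 lists of other proteases, inhibitors, activators, substrates and receptors, which together hold 121 genes, of which 89 passed the filter on low counts. By edgeR and limma-voom 0 of the 89 passed an adjusted p of 0.05, as did 0 of the 69 to which DESeq2 gave one. By edgeR 7 (7.87%) had an unadjusted p under 0.05, 1 higher and 6 lower in AHRmko, near the 6.61% of all genes. In 0 of the 89 did the groups fail to overlap. The counts of higher and lower genes per list are descriptions, and leaving out a mouse turned the balance of 4 of the 8 lists. In these the number lower ranged from 5 to 11 of 17 ADAMTS and ADAMTS-like genes, 3 to 8 of 11 inhibitors, 4 to 7 of 10 activators and 8 to 16 of 20 proteoglycan and basement membrane genes. Of 6 other MMPs, evenly split with all mice, 2 to 4 were lower, so that list leaned either way. The number lower was 0 to 3 of 7 ADAM proteases and 3 to 4 of 6 receptors and ligands.

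Among 6 other MMPs tested, of 19 listed, 3 were higher and 3 lower, with a median log2 fold change of 0.02. The highest per kilobase were *Mmp3* (stromelysin 1, 0.993 CPM per kilobase), *Mmp11* (stromelysin 3, 0.782) and *Mmp23* (0.442), all well under *Timp2*. Among 17 other ADAMTS and ADAMTS-like genes, 9 were higher and 8 lower, with *Adamtsl5* (7.66 CPM per kilobase), *Adamtsl4* (5.93) and *Adamts10* (0.762) at the top. *Adamtsl1*, an ADAMTS-like protein without protease activity, had the smallest p of that list, at 2.29 ± 0.761 CPM in AHRfl and 3.49 ± 0.684 CPM in AHRmko muscle (log2 fold change 0.61, edgeR adjusted p = 0.665). Of 7 ADAM proteases, which shed membrane proteins, 5 were higher and 2 lower. *Adam9* led with 19.5 CPM per kilobase, above the level of *Timp2*, followed by *Adam15* (3.46) and *Adam10* (3.18).

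Other inhibitors and clearance genes gave 5 higher and 6 lower of 11 tested. *Cst3*, the cysteine protease inhibitor cystatin C, was at 313.5 CPM per kilobase, the collagen chaperone gene *Serpinh1* at 19.5, and *Serping1*, which inhibits complement C1 proteases, at 14.2. Activators of pro-MMPs gave 4 higher and 6 lower of 10, with *Bsg* (basigin, an inducer of MMPs) at 316.4, the urokinase gene *Plau* at 7.33 and the convertase gene *Furin* at 5.38 CPM per kilobase. Receptors and ligands linked to TIMP3 gave 2 higher and 4 lower of 6, with *Tnfrsf1a* at 6.11, *Kdr* at 3.15 and *Hbegf* at 2.56 CPM per kilobase. *Egfr* of that list had a log2 fold change of -0.29 (edgeR adjusted p = 0.737).

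All 12 collagen genes tested were lower in AHRmko on average, beside 7133 of all 14714 genes. The number lower was 11 without AHRmko mouse 19 and 10 without AHRfl mouse 15. The median log2 fold change of the 12 was -0.17. That median ran from -0.27 without AHRfl mouse 12 to -0.10 without AHRmko mouse 19, and was -0.26 with 1 surrogate variable or a slow-fibre covariate. With a fibroblast covariate it was -0.13, and all 12 were still lower. The fibroblast score used there includes *Col1a1* and *Col3a1* of this same list, so that covariate is not independent of the collagen values. An unadjusted p under 0.05 was found in 2 of the 12 by edgeR, beside 6.61% of all genes, and in 1 by limma-voom. It was found in 6 with the surrogate variable and in 5 with the slow-fibre covariate, where 1348 and 1131 of all 14714 genes had one, and in 3 with the fibroblast covariate, where 1278 did. *Col4a2* and *Col4a1*, of the basement membrane, and *Col1a1*, of fibrils, were the highest at 12.3, 11.8 and 7.73 CPM per kilobase. *Col6a3* was at 22.8 ± 2.80 CPM in AHRfl and 18.7 ± 1.67 CPM in AHRmko muscle (log2 fold change -0.28, edgeR adjusted p = 0.665), and *Col5a2* had a log2 fold change of -0.28 (edgeR adjusted p = 0.738). Of 20 proteoglycan and basement membrane genes 8 were higher and 12 lower. Most were higher instead without AHRfl mouse 15 or AHRmko mouse 19 (11 of 20 each) or without AHRmko mouse 34 (12 of 20), and the median log2 fold change ran from -0.18 to 0.04 with a mouse left out. At the top were *Sparc* (38.9), *Dcn* (36.7) and *Thbs4* (32.7 CPM per kilobase). *Vcan*, the versican that ADAMTS1 and ADAMTS5 cleave, was at 5.97 ± 1.62 CPM in AHRfl and 4.16 ± 0.893 CPM in AHRmko muscle (log2 fold change -0.52, edgeR adjusted p = 0.665). *Lama2*, of the muscle laminins, had a log2 fold change of -0.27 (edgeR adjusted p = 0.606) and *Fbn1*, of microfibrils, one of -0.41 (edgeR adjusted p = 0.707). Of 8 fibroblast markers, which include *Col1a1*, *Col3a1*, *Dcn* and *Lum* of these lists, 6 were lower on average. Their summed levels were 291 to 504 CPM in AHRfl and 296 to 547 CPM in AHRmko muscle. Their part in the collagen values was not tested beyond the fibroblast covariate.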

How the data were processed

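Poly(A)-selected RNA of the gastrocnemius was sequenced in 5 AHRfl and 5 AHRmko mice. According to the submitters' processing notes, reads were trimmed with Trimmomatic 0.36 and aligned to GRCm38 with STAR 2.5.2b. The authors counted unique reads in exons per gene with featureCounts and deposited raw counts, 1 column per mouse, not normalized. The Ensembl release and the strand setting are not given in the sources used here. The deposited counts were then fitted with edgeR 4.0.16 under R 4.3.3, using filterByExpr (minimum count 10, minimum total 15), TMM, and the robust quasi-likelihood test with Benjamini-Hochberg adjustment over 14714 genes. The threshold was 0.05. Log2 CPM were computed from TMM-scaled libraries with 2 as the prior count. Levels per kilobase used the union of exons in GENCODE M21. Permutation tests drew 100000 resamples. Promoter sequences are from RefSeq, GRCm38.p6.

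Alternatives were DESeq2 1.42.0, limma-voom (limma 3.58.1), other scalings and filters, a fit without robust estimation, 1 surrogate variable (sva 3.50.0), slow-fibre or fibroblast scores as covariates, and leaving out each mouse. The genes, lists, tests and alternatives were chosen with earlier results of these data known. Named genes are the 10 genes of the set. In each wider list they are the 3 with the highest level per kilobase and up to 3 with the smallest unadjusted p under 0.05, and any whose groups do not overlap. For *Timp3* they are the 5 genes with the most similar deviations. Floors and intervals of counts cover counting error only, as reads carry no molecular identifiers. Each mouse was taken as 1 replicate, and no animal number occurs in both genotypes, so nothing was paired.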

Additional observations from a re-analysis of the deposited data

Results flagged for a closer look

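*Timp1* in AHRmko mouse 9 lay apart from the other AHRmko mice. It had 5 counts, or 0.136 CPM (exact Poisson 95% interval 0.0440 to 0.317 CPM, counting error only), whereas the other 4 mice had 18 to 24 counts, or 0.473 to 0.688 CPM. On the log2 scale its gap to the nearest mouse was 0.748 of the range of the group, above Dixon's critical value of 0.71 for 5 samples. The check covered 20 groups (10 genes in each genotype) and found 1, and chance gives about 1 in 20. Without this mouse the log2 fold change of *Timp1*, AHRmko minus AHRfl, was -0.42 instead of -0.67.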

How the results depend on the processing

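Fold changes and counts of calls were recomputed under 10 other settings and with each mouse left out, and levels per kilobase with another length and with total-count scaling. Correlations, sums, shares and SDs were not recomputed in this way. Of 199 log2 fold changes of the 10 genes, 181 kept their direction and their side of the threshold, 2 (*Timp1* and *Mmp9* under DESeq2, with no adjusted p) kept their direction, 14 reversed and 2 passed the threshold where edgeR's main test did not. The last 2 were *Timp3* and *Adamts1* under DESeq2. Nothing is read from their passing, because this contrast was known when the genes were chosen and chose *Timp3*. The count of genes called was 1 in the main analysis, 21 with DESeq2, 5 without a filter and 2 when adjusted for the slow-fibre score. It was 1 to 6 with a mouse left out, the 6 coming without AHRmko mouse 34. The count among the 10 genes was 2 with DESeq2 and 0 with any mouse left out. The log2 fold change of *Timp2* reversed to -0.0029 with 1 surrogate variable and to -0.0172 when adjusted for slow fibres, and ranged from -0.0708 to 0.112 with a mouse left out. That of *Timp4* reversed to -0.0854 and -0.0965 under the same covariates and ranged from -0.128 to 0.0906. That of *Mmp9* ranged from -0.201 to 0.104. For all of these the cause was not tested. The log2 fold change was 0.48 to 0.59 for *Timp3*, 0.52 to 0.58 for *Adamts1* and -0.41 to -0.38 for *Mmp14* across the 10 other settings. Leaving out a mouse gave 0.47 to 0.65, 0.46 to 0.63 and -0.44 to -0.33, respectively. The median of the 10 genes was -0.07 to 0.02 across settings and from -0.13 to 0.07 when 1 mouse was omitted. In the wider lists 0 genes were called under any setting. *Timp1* has no value where at least 10 counts were required in every mouse. No paired analysis was possible because no animal number occurs in both genotypes. The values of *Timp1* and *Mmp9* rest on low counts, and those of all 10 genes on 5 mice per genotype. What limits the calls of each gene was not tested.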

Other observations

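Of the 19 other MMPs listed, 13 were under the filter on low counts in these smoke-exposed muscles. *Mmp1a*, *Mmp1b*, *Mmp7* and *Mmp10* had 0 counts in every mouse, which allows a level of up to 0.0788 to 0.0927 CPM per mouse. The neutrophil collagenase gene *Mmp8* had 2 to 12 counts, the macrophage elastase gene *Mmp12* had 0 to 8, and the collagenase gene *Mmp13* had 0 to 7. Among the targets and inhibitors linked to TIMPs, *Tnf* had 0 to 5 counts, *Acan* (aggrecan) 0 to 4, and *A2m*, the plasma inhibitor alpha-2-macroglobulin, 0 to 2 counts per mouse.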
